A study of Mus musculus with 16 samples.

Results

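The 10 genes described here encode enzymes that remove peroxides, superoxide and quinones, break down heme, make glutathione, or keep thioredoxin and peroxiredoxins reduced: Nqo1, Hmox1, Gclc, Gclm, Txnrd1, Srxn1, Gpx1, Gpx2, Sod1 and Sod2. They were taken by name from the 21965 Ensembl genes of the count table, with earlier results of these data known. All 10 had enough reads to be among the 13811 genes tested. Their mRNA was measured in terminal ileum from 16 male C57BL/6 mice, each sequenced as a single library. Mice were either wild-type (WT) or heterozygous for the C. elegans fat-1 gene (written Fat1+/- in the sample labels), which encodes an n3 fatty acid desaturase and is expressed in all tissues, so that these animals make n3 from n6 polyunsaturated fatty acids. WT mice were littermates, and feeding began at 8 to 10 weeks of age. All mice received a liquid diet. For EtOH groups its ethanol content was raised in steps through 1, 2, 4 and 5% (v/v) to 6%, which was kept for 3 weeks, and pair-fed (PF) groups received maltose dextrin of equal calories instead. The PF groups held 4 WT and 4 fat-1 mice, and the EtOH groups 3 WT and 5 fat-1 mice. The transgene itself was not analysed here, and the mouse gene Fat1 is a different gene, a cadherin.

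NRF2, encoded by Nfe2l2, is the transcription factor that raises much of this defense when electrophiles or oxidants reach a cell. At rest, KEAP1 holds NRF2 and presents it to the CUL3 ubiquitin ligase for degradation, while BACH1 occupies many of the same DNA elements and represses the genes. Nqo1, Hmox1, Gclc, Gclm, Txnrd1 and Srxn1 are textbook NRF2 targets, Gpx2 is the peroxidase of the gut epithelium and also responds to NRF2, and Gpx1, Sod1 and Sod2 are housekeeping antioxidant enzymes whose dependence on NRF2 is weaker. The DNA element is called the antioxidant response element, and its core is written TGACNNNGC.

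Since NRF2 acts at this element, the start sites of the 10 genes were searched for it, on both strands, in promoter sequences of RefSeq (GRCm38.p6) that run from 250 bases before to 50 bases after a start. RefSeq promoters were found for 8 of the 10 genes, all but Hmox1 and Gclc, and Txnrd1 had 3, which made 10 promoters. The core lay in 4 of these 10 promoters, against 4071 of all 32851 promoters (12.4%) and 20 of 101 promoters (19.8%) of the other redox genes described further on. The 4 matches are shown because they place the element in Gclm, Txnrd1 and Sod1, called lower with EtOH on average, and in Srxn1, which was not called. Each is printed on the strand of its gene, with the 9 bases of the core in capitals, which read as GCNNNGTCA since the core lies on the opposite strand in all 4, and with 10 bases on either side.
Gclm, chr3:122245413-122245441: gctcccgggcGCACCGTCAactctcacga
Txnrd1, chr10:82859104-82859132: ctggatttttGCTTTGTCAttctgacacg
Srxn1, chr2:152105542-152105570: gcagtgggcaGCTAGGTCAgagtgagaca
Sod1, chr16:90220696-90220724: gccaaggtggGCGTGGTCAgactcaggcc
The core began 134, 92 and 56 bases before the start in Gclm, Txnrd1 and Sod1, and 28 bases after it in Srxn1. In Txnrd1 it lay in 1 of the 3 promoters, at a start inside the annotated gene. The promoters of Nqo1, Gpx1, Gpx2 and Sod2 did not hold the core. A match of letters is a description and does not show that a factor binds there.

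In 5 libraries genes of other gut regions stood out, and a call that was lost without them is given with its value. The summed level of 12 large intestine genes was 11806 and 12717 CPM (reads scaled to a common library size after TMM adjustment) in fat-1 EtOH replicates 3 and 4 and 4717 CPM in WT EtOH replicate 2, against 96.9 to 430.3 CPM in the other mice. The same fat-1 EtOH replicates had 141 and 131 CPM of the 6 Paneth cell genes, which ran from 8047 to 28771 CPM elsewhere. The summed level of 10 proximal small intestine genes reached 57599 and 58819 CPM for replicates 2 and 4 of fat-1 PF. It spanned 2280 to 16764 CPM over the other PF mice, and 41.0 to 635.5 CPM with EtOH. Smooth muscle genes summed to 937 to 1491 CPM in PF and to 1938 to 4130 CPM in EtOH-fed mice. All 8 epithelial markers were detected in every group. They summed to 13819 to 19113 CPM in PF and 15939 to 16425 CPM in WT EtOH mice, and to 16415, 17929, 10438, 10433 and 12334 CPM in fat-1 EtOH mice, of which the last 3 were below every PF mouse. With EtOH in fat-1 mice, 2 of these markers fell, Vil1 (log2 fold change -0.88, edgeR adjusted p = 0.0463) and Krt20 (-0.85, edgeR adjusted p = 0.00744), and 2 rose, Krt18 (0.48, edgeR adjusted p = 0.0359) and Krt19 (0.59, edgeR adjusted p = 0.0423). Of 5 tuft cell markers tested 3 rose on average (60%) and none fell, and of 7 goblet cell markers 2 rose (28.6%) and 1 fell (14.3%), against 18.3% and 17.6% of all genes. In WT mice the summed levels of both lists did not overlap between diets, with 29.1 to 39.2 CPM in PF and 45.2 to 78.2 CPM in EtOH-fed mice for tuft and 11250 to 13513 CPM and 14435 to 15193 CPM for goblet cells, while in fat-1 mice they overlapped. By edgeR calls, 4 of 7 goblet (57.1%) and 2 of 5 tuft cell markers (40%) rose in fat-1 mice, and 1 goblet marker fell (14.3%). Of all genes there, 18.7% rose and 18.8% fell. In WT mice no marker of either list was called. Leaving out the 5 libraries does not remove the difference in region: the proximal and smooth muscle sums of the other mice still did not overlap between diets. In those mice segment or tissue makeup and diet cannot be told apart. The part of these markers in the results was not tested. Library totals ran from 8422645 to 11438539 counts. PF libraries are numbered 1 to 8 and EtOH libraries 9 to 16, and order and diet cannot be told apart.

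The levels of the genes in unstressed WT PF ileum, given as CPM per kilobase of the principal transcript, spanned a wide range. Gpx2 stood highest at 628 ± 170 (SD, n = 4), followed by Sod1 at 413 ± 47.0 and Gpx1 at 250 ± 42.7. Srxn1 (187 ± 10.4) and Txnrd1 (102 ± 7.37) were in the middle. The glutathione synthesis genes Gclc (23.2 ± 5.89) and Gclm (20.7 ± 4.07) were lower, near Nqo1 (16.8 ± 1.39) and above Sod2 (12.3 ± 0.637). Hmox1 was lowest at 1.85 ± 0.565. Of neighbours in this order, Gpx1 and Srxn1, Gclc and Gclm, and Gclm and Nqo1 overlapped between mice. The order held at the low end in all 4 groups, where Sod2 came next to last and Hmox1 last. At the top, Gpx2 and Sod1 traded places in fat-1 PF mice (522 ± 332 against 629 ± 117, n = 4), where the mice overlapped.

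**Figure D1:**
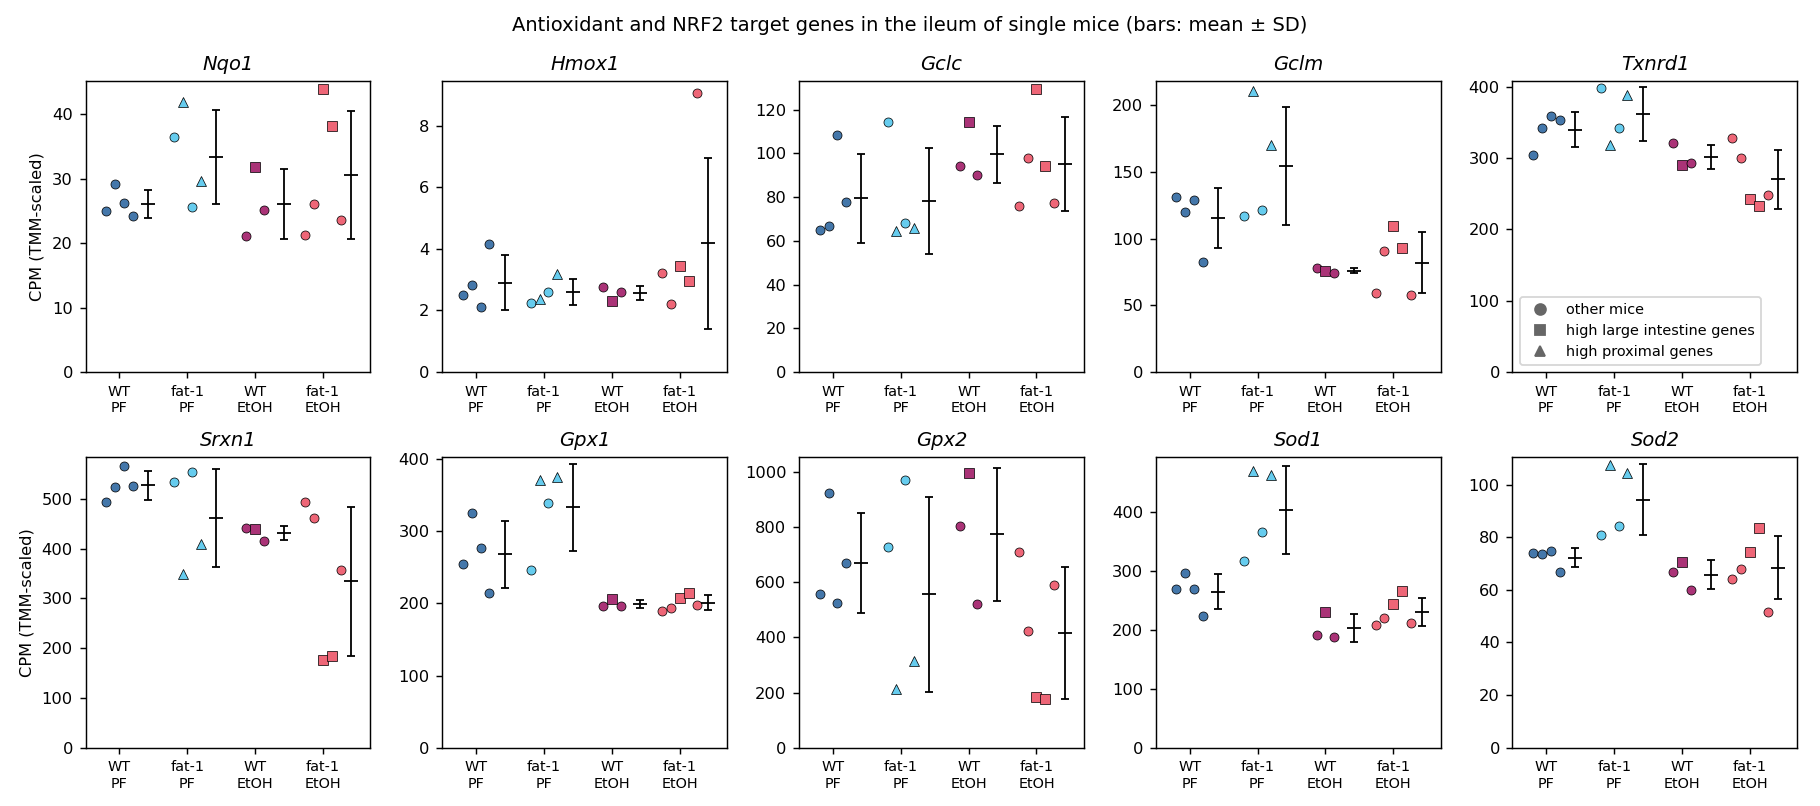
Level of each gene in single mice, in CPM on a linear axis from 0, by group; black marks are the mean ± SD, squares are the 3 mice with high large intestine genes and triangles the 2 fat-1 PF mice with high proximal genes. Gpx1 spans 190 to 215 CPM over the 8 EtOH-fed mice and 215 to 375 CPM over the 8 PF mice, while Gpx2 is low in 2 fat-1 PF and 2 fat-1 EtOH mice.

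With EtOH feeding 5 of the 10 genes fell and none rose. Averaged over both genotypes, these were Gclm, Txnrd1, Gpx1, Sod1 and Sod2 (edgeR quasi-likelihood test, Benjamini-Hochberg adjustment over all genes, adjusted p of 0.05 or less). Of all genes tested, 17.6% were called lower and 18.3% higher, 35.9% together. An unadjusted p under 0.05 was reached by the same 5 genes and by 46.9% of all genes. The median log2 fold change of the 10 genes was -0.30, against 0.04 over all genes tested. In fat-1 mice alone the same 5 genes fell, where 18.8% of all genes were called lower and 18.7% higher, 37.4% together, and 47.9% had an unadjusted p under 0.05, and the median of the 10 genes was -0.44 against 0.05. In WT mice alone edgeR called 0 of the 10, against 0.0796% of all genes (0.0724% lower), and 3 of the 10 (Gclm, Gpx1 and Sod1, all lower) had an unadjusted p under 0.05, as 14.1% of all genes did. DESeq2 called 0 of the 10 in WT mice, against 1.97% of all genes, and limma voom called these 3, against 20.7% of all genes. Whether the response to EtOH differed between genotypes was tested as an interaction, which gave 0 of the 10 and 0% of all genes in edgeR, DESeq2 and limma voom, and only Sod1 had an unadjusted p under 0.05 in edgeR (log2 difference -0.43, standard error 0.20, adjusted p = 0.595), against 8.26% of all genes. An exact permutation p of 0.05 or less was reached by 5 of the 10 in fat-1 mice and by 1 in WT mice, against 36.6% and 12.7% of all genes. The averaged comparison uses the mice of both single-genotype comparisons, so the 3 are not independent. In bulk tissue, fewer cells of a type and less mRNA per cell cannot be told apart.

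**Figure D2:**
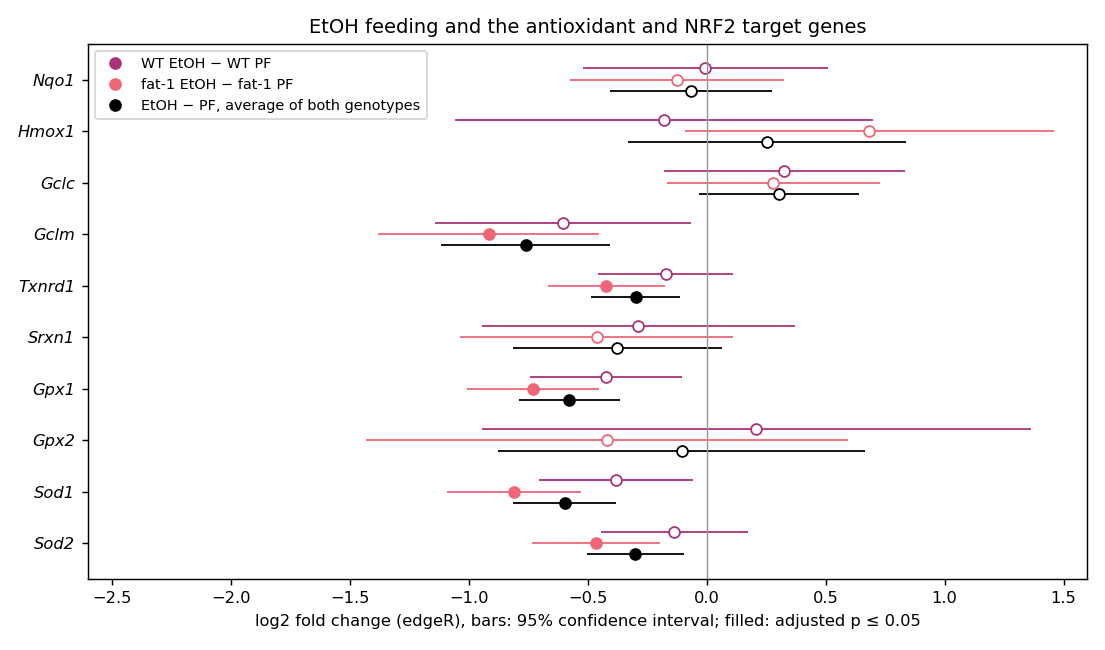
Log2 fold change of each gene with EtOH in WT mice (purple), in fat-1 mice (red) and averaged over both genotypes (black), with 95% confidence intervals; filled points have an adjusted p of 0.05 or less (edgeR). Gclm, Txnrd1, Gpx1, Sod1 and Sod2 are filled in fat-1 mice and in the average, no point is filled in WT mice, and Gclc lies to the right of 0 where Gclm lies to the left.

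Glutamate-cysteine ligase makes the first and limiting step of glutathione synthesis and is built from a catalytic subunit, Gclc (ENSMUSG00000032350, chromosome 9 from 77754535 to 77794485, GRCm38), and a modifier subunit, Gclm (ENSMUSG00000028124, chromosome 3 from 122245557 to 122270732), which raises its efficiency. Gclm had 131, 120, 129 and 82.2 CPM in WT PF mice and 117, 211, 121 and 170 CPM in fat-1 PF mice. With EtOH it had 78.1, 75.8 and 74.3 CPM in WT mice and 59.2, 90.7, 110 and 92.8 CPM and then 57.6 CPM in fat-1 mice. Every EtOH-fed mouse was below every PF mouse of its genotype, a separation in either direction that 24% of all genes had in the fat-1 and 24.3% in the WT comparison. Gclm was 1.89-fold lower with EtOH in fat-1 mice (log2 fold change -0.92, standard error 0.22, edgeR adjusted p = 0.00524) and 1.52-fold lower in WT mice, where it did not pass (-0.60, standard error 0.25, edgeR adjusted p = 0.306). The fat-1 PF replicates with proximal genes were the mice with the most Gclm, and without them the change in fat-1 mice was -0.54 and no longer passed (edgeR adjusted p = 0.12), while the average over both genotypes did (-0.57, edgeR adjusted p = 0.0234). Part of the Gclm exons overlaps the predicted genes Gm6061 and Gm17494, and 3.5% of its read-length windows also occur in other genes.

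Gclc did not follow Gclm. It had 64.8, 66.7, 108 and 77.7 CPM in WT PF mice, 114, 64.6, 68.2 and 65.9 CPM in fat-1 PF mice, 94.1, 114 and 90.3 CPM in WT EtOH mice and 75.9, 98.1, 129, 94.4 and 77.5 CPM in fat-1 EtOH mice. The groups overlapped, since WT PF replicate 3 and fat-1 PF replicate 1 were as high as EtOH-fed mice. The averaged log2 fold change was 0.30 (standard error 0.16, edgeR adjusted p = 0.145). Fat-1 PF replicate 1 decided this call: without it Gclc was higher with EtOH by 0.43 on the log2 scale averaged over both genotypes (edgeR adjusted p = 0.0248) and by 0.53 in fat-1 mice (edgeR adjusted p = 0.0441). Without both sets of libraries that stood apart, the change was 0.06 on average and -0.11 in fat-1 mice, and neither passed (edgeR adjusted p = 0.821 and 0.78).

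The ratio of the subunits, which is read within a library and does not depend on scaling, was examined after these values had been seen. Per transcript length, the ratio of Gclc to Gclm was 0.807, 0.908, 1.37 and 1.54 in WT PF and 1.59, 0.501, 0.919 and 0.633 in fat-1 PF mice. With EtOH it was 1.97, 2.46 and 1.99 in WT and 2.09, 1.76, 1.93, 1.66 and 2.20 in fat-1 mice. No EtOH-fed mouse overlapped with a PF mouse. The mean was 1.03 ± 0.416 (SD, n = 8) in PF and 2.01 ± 0.251 (SD, n = 8) in EtOH-fed mice, and the means of the log2 ratios differed by 1.05 (exact two-sided permutation test, p = 0.000155, which is the lowest value possible with 8 against 8, and 0.00699 after adjustment over all 45 pairs of the 10 genes). Of these 45 pairs, 15 had an adjusted p of 0.05 or less, and the pair Gclc and Gclm was the 1 pair (2.22%) without overlap between diets. Pairs of all genes tested were not examined, so how rare such a ratio is was not tested. Among single genes, 7.79% of all tested had no overlap between diets. The difference was 0.80 without the fat-1 PF replicates 2 and 4, 1.06 without the mice with large intestine genes, and 0.80 without both sets. In fat-1 mice alone the difference was 1.22 (exact permutation test, p = 0.00794, the smallest possible) and in WT mice alone 0.93 (exact permutation test, p = 0.0571).

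**Figure D3:**
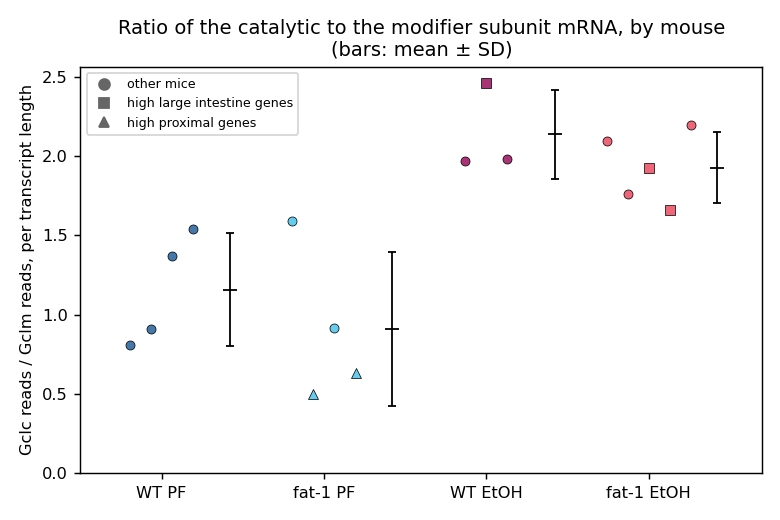
Ratio of Gclc to Gclm reads per transcript length in single mice by group, with mean ± SD in black. PF mice span 0.501 to 1.59 and EtOH-fed mice 1.66 to 2.46, with 8 mice each.

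Gpx1 (ENSMUSG00000063856, chromosome 9 from 108338903 to 108340343) encodes the ubiquitous cytosolic glutathione peroxidase, a selenoprotein that reduces hydrogen peroxide. It had 255, 325, 276 and 215 CPM in WT PF mice and 247, 371, 339 and 375 CPM in fat-1 PF mice, against 196, 206 and 196 CPM in WT EtOH mice and 190, 193, 208, 215 and 197 CPM in fat-1 EtOH mice. Of the 10 genes it was the one for which no EtOH-fed mouse overlapped with a PF mouse over both genotypes, as held for 7.79% of all genes tested. This separation was as narrow as 214.73 CPM in fat-1 EtOH replicate 4 against 214.81 CPM in WT PF replicate 4, and was not tested under other scalings. Its spread shrank from an SD of 60.5 CPM over the 8 PF mice to 8.37 CPM over the 8 EtOH-fed mice. Gpx1 was 1.66-fold lower with EtOH in fat-1 mice (log2 fold change -0.73, standard error 0.13, edgeR adjusted p = 0.000986) and 1.49-fold lower on average (-0.58, standard error 0.10, edgeR adjusted p = 0.000859). In WT mice the change was -0.42 (standard error 0.15, edgeR adjusted p = 0.24). Without both sets of libraries that stood apart it still passed in fat-1 mice (-0.58, edgeR adjusted p = 0.0446).

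Gpx2 (ENSMUSG00000042808, chromosome 12 from 76792333 to 76795554), the related peroxidase of the gut lining, varied more between mice than any other of the 10 genes, with an SD of 0.83 in log2 CPM. It had 558, 926, 524 and 672 CPM in WT PF mice, 730, 213, 970 and 316 CPM in fat-1 PF mice, 804, 997 and 520 CPM in WT EtOH mice and 711, 425, 183, 175 and 591 CPM in fat-1 EtOH mice. The 4 lowest mice were fat-1 PF replicates 2 and 4 and fat-1 EtOH replicates 3 and 4, those with proximal and with large intestine genes, whereas WT EtOH replicate 2, which also held large intestine genes, was the highest of all 16. The groups overlapped in each comparison. The averaged change with EtOH was -0.11 (95% interval -0.88 to 0.67, edgeR adjusted p = 0.842), and its sign turned without the 3 mice with large intestine genes (0.02). Of its read-length windows, 3.17% also occur in the pseudogene Gpx2-ps1.

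Sod1 (ENSMUSG00000022982, chromosome 16 from 90220754 to 90226329) and Sod2 (ENSMUSG00000006818, chromosome 17 from 13006846 to 13040063) encode the cytosolic copper-zinc and the mitochondrial manganese superoxide dismutase, which turn superoxide into hydrogen peroxide. Sod1 had 268, 297, 270 and 224 CPM in WT PF mice, 316, 469, 366 and 463 CPM in fat-1 PF mice, 192, 229 and 188 CPM in WT EtOH mice and 208, 220, 244, 266 and 212 CPM in fat-1 EtOH mice. In fat-1 mice Sod1 was 1.75-fold lower with EtOH (log2 fold change -0.81, standard error 0.13, edgeR adjusted p = 0.000616). The diets did not overlap there, as in 24% of all genes tested. In WT mice they overlapped through WT EtOH replicate 2 and WT PF replicate 4, and the change was -0.38 (standard error 0.15, edgeR adjusted p = 0.287). Without both sets of libraries Sod1 passed in fat-1 mice (-0.66, edgeR adjusted p = 0.0161).

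Sod2 had 74.2, 73.6, 74.6 and 66.7 CPM in WT PF mice and 80.9, 107, 84.3 and 104 CPM in fat-1 PF mice. With EtOH it had 66.7, 70.6 and 60.0 CPM in WT and 64.0, 68.0, 74.5, 83.7 and 51.6 CPM in fat-1 mice. It was 1.38-fold lower with EtOH in fat-1 mice (log2 fold change -0.46, standard error 0.13, edgeR adjusted p = 0.011), where fat-1 EtOH replicate 4 overlapped with fat-1 PF mice. Without fat-1 PF replicates 2 and 4 the change was -0.27 in fat-1 mice (edgeR adjusted p = 0.191) and -0.20 on average (edgeR adjusted p = 0.141), so that neither passed. Without both sets of libraries it was -0.42 in fat-1 mice (edgeR adjusted p = 0.0501) and passed on average (-0.30, edgeR adjusted p = 0.0255). The averaged change of -0.30 (standard error 0.10, edgeR adjusted p = 0.0256) was lost when any 1 of 6 mice was left out: WT PF replicate 1 (-0.28), 2 (-0.29) or 3 (-0.28), fat-1 PF replicate 2 (-0.26) or 4 (-0.27), or WT EtOH replicate 3 (-0.27), with edgeR adjusted p from 0.0506 to 0.0691. Upper-quartile normalization ended the Sod2 call too, on average (-0.20, edgeR adjusted p = 0.121) and in fat-1 mice (-0.31, edgeR adjusted p = 0.066), as did a fit of only the compared groups in fat-1 mice (-0.44, edgeR adjusted p = 0.0606). Of the Sod2 read-length windows 16.2% also occur in other genes, so its counts are less certain than those of the others.

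Txnrd1 (ENSMUSG00000020250, chromosome 10 from 82833951 to 82897712), the cytosolic selenoprotein that reduces thioredoxin, had 304, 341, 359 and 353 CPM in WT PF mice and 398, 319, 341 and 388 CPM in fat-1 PF mice. With EtOH it had 320, 291 and 292 CPM in WT and 328, 300, 242, 232 and 247 CPM in fat-1 mice. The change was the smallest of the 5 in fat-1 mice, 1.34-fold lower (log2 fold change -0.42, standard error 0.12, edgeR adjusted p = 0.0112), and the groups overlapped. The 2 lowest mice were those with large intestine genes. Without them and WT EtOH replicate 2 the change was -0.28 in fat-1 mice (edgeR adjusted p = 0.107) and -0.22 on average (edgeR adjusted p = 0.1), so that neither passed. Without fat-1 PF replicates 2 and 4 it was -0.45 in fat-1 mice and did not pass (edgeR adjusted p = 0.0566), while the average did (-0.31, edgeR adjusted p = 0.0415), and without both sets of libraries neither passed (-0.33 and -0.23). With all libraries kept, Txnrd1 also missed the threshold in fat-1 mice with limma voom (-0.30, adjusted p = 0.0786), with only the compared groups in the fit (-0.40, edgeR adjusted p = 0.0707) and under upper-quartile normalization (-0.28, edgeR adjusted p = 0.0636), and in the last also on average (-0.20, edgeR adjusted p = 0.0791).

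Srxn1 (ENSMUSG00000032802, chromosome 2 from 152105516 to 152111376) encodes sulfiredoxin, which restores overoxidized peroxiredoxins. It had 494, 523, 565 and 525 CPM in WT PF mice, 534, 350, 553 and 408 CPM in fat-1 PF mice, 441, 439 and 415 CPM in WT EtOH mice and 494, 462, 176, 185 and 357 CPM in fat-1 EtOH mice. Every WT EtOH mouse was below every WT PF mouse (exact two-sided permutation test, p = 0.0286, the lowest value possible here), as in 24.3% of all genes tested, while the fitted change of -0.29 did not pass (edgeR adjusted p = 0.71). The lowest levels were again in fat-1 EtOH replicates 3 and 4 and, among PF mice, in fat-1 PF replicates 2 and 4. The averaged change was -0.38 (standard error 0.20, edgeR adjusted p = 0.164), and without both sets of libraries it was -0.29 and passed narrowly (edgeR adjusted p = 0.0499). Without the 3 mice with large intestine genes alone, it was -0.18 on average and did not pass. In fat-1 mice it was then -0.05, against -0.46 with all libraries, and passed in neither.

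Nqo1 and Hmox1, the NRF2 targets most used as readouts of the pathway, did not pass in any comparison. Nqo1 (ENSMUSG00000003849, chromosome 8 from 107388225 to 107403206), a quinone reductase, had 24.9, 29.1, 26.2 and 24.2 CPM in WT PF mice, 36.5, 41.8, 25.6 and 29.6 CPM in fat-1 PF mice, 21.1, 31.8 and 25.1 CPM in WT EtOH mice and 21.2, 26.0, 44.0, 38.1 and 23.6 CPM in fat-1 EtOH mice. Within each EtOH group the highest mice were those with large intestine genes. The averaged change was -0.07 (standard error 0.16, edgeR adjusted p = 0.774), and 0.04 under upper-quartile normalization. Without these 3 mice it was -0.32 (edgeR adjusted p = 0.05), and in fat-1 mice -0.47 (edgeR adjusted p = 0.0374), so that Nqo1 then passed as lower in both.

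Hmox1 (ENSMUSG00000005413, chromosome 8 from 75093621 to 75100589), the inducible heme oxygenase, rested on 17 to 106 reads per mouse. It had 2.51, 2.83, 2.11 and 4.16 CPM in WT PF mice, 2.23, 2.39, 2.60 and 3.19 CPM in fat-1 PF mice, 2.78, 2.31 and 2.60 CPM in WT EtOH mice and 3.23, 2.21, 3.44, 2.94 and 9.07 CPM in fat-1 EtOH mice. Fat-1 EtOH replicate 5 alone was high. In this mouse the 9 macrophage markers summed to 450 CPM, against 180 to 335 CPM in the other mice, and the 6 B cell markers to 516 CPM, against 1.96 to 104 CPM. The averaged change was 0.25 (95% interval -0.33 to 0.84, edgeR adjusted p = 0.489), and 0.016 without this mouse. In fat-1 mice it was 0.68 (edgeR adjusted p = 0.149), and 0.20 without this mouse.

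The comparison of genotypes under pair feeding asks what the desaturase does without EtOH. Here edgeR called 0 of the 10 genes, and 0% of all genes, while 3 of the 10 had an unadjusted p under 0.05, as 12.7% of all genes did. These were Sod1, Sod2 and Gpx1, each higher in fat-1 PF mice. Every fat-1 PF mouse had more Sod1 and more Sod2 than every WT PF mouse (exact two-sided permutation test, p = 0.0286 for each gene, the lowest value possible here), as in 6.87% of all genes tested for either direction, which is also the share of all genes with an exact p of 0.05 or less. Sod1 was 1.52-fold higher (log2 fold change 0.61, standard error 0.14, edgeR adjusted p = 0.187) and Sod2 1.30-fold higher (0.38, standard error 0.13, edgeR adjusted p = 0.243). Gpx1 differed by 0.32 (standard error 0.14, edgeR adjusted p = 0.358), with overlap. DESeq2 and limma voom each called Sod1 alone (adjusted p = 0.0143 and 0.049), where they called 1.18% and 0.217% of all genes, and so did edgeR without fat-1 PF replicate 1 (0.70, adjusted p = 0.0498). The highest mice for Sod1 and Sod2 were fat-1 PF replicates 2 and 4, and without them the differences were 0.36 and 0.18. Gpx1 was also highest in these 2 mice, and the lowest difference for it over all settings tried was 0.12.

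Under EtOH no difference between the genotypes was detected. For fat-1 EtOH against WT EtOH, edgeR, DESeq2 and limma voom called 0 of the 10 genes, against 0.00724%, 0.0363% and 0.00724% of all genes, and none had an unadjusted p under 0.05, as 4.86% of all genes did. The mice overlapped for all 10 genes, and 2.45% of all genes did not overlap. An exact permutation p of 0.05 or less was reached by 0 of the 10 and by 1.69% of all genes. The 95% intervals ran from -0.29 to 0.31 for Gpx1 and from -0.24 to 0.35 for Sod2. The interval was widest for Gpx2, from -1.98 to 0.20.

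The profiles most like those of the 3 most variable genes were sought among the 13810 other genes tested, by the root mean square difference of centred log2 CPM over the 16 libraries, which share scaling and tissue makeup. For Gpx2 the nearest was Gsr, glutathione reductase, which regenerates the glutathione that Gpx2 consumes (difference 0.18), followed by Gdpd1 (0.31). The level of Gsr was 92.2 and 125 CPM for replicates 2 and 4 of fat-1 PF and 80.9 and 81.8 CPM for replicates 3 and 4 of fat-1 EtOH, against 187 to 407 CPM in the other mice, so that it was low in the same 4 mice as Gpx2. For Gclm the nearest were the water channel gene Aqp11 (0.15) and the lipid kinase gene Pi4k2b (0.16). For Srxn1 they were the cell polarity gene Mpp5 (0.13) and the intestinal cadherin gene Cdh17 (0.13).

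**Figure D4:**
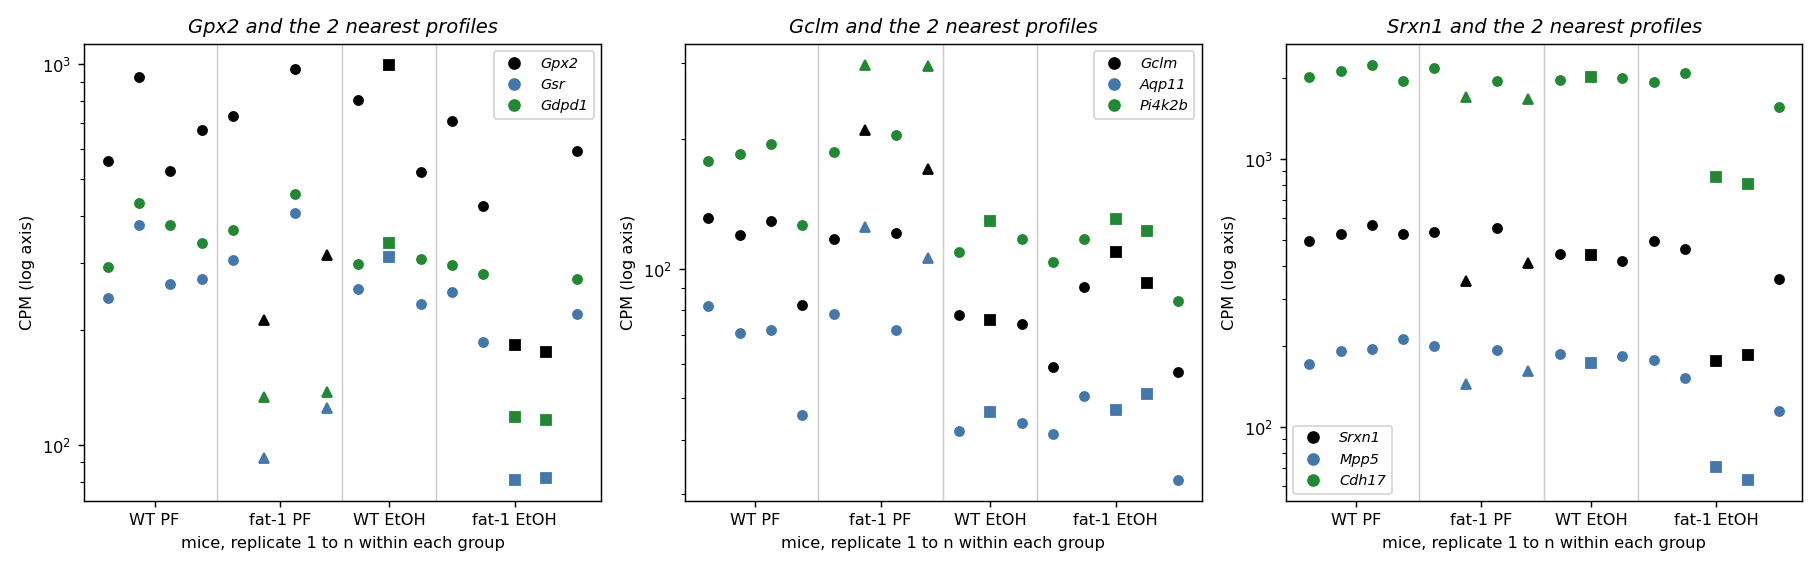
Levels of Gpx2, Gclm and Srxn1 (black) and of the 2 genes with the nearest profile (blue and green) in each of the 16 mice, in CPM on a log axis, with groups separated by vertical lines, squares for mice with high large intestine genes and triangles for fat-1 PF mice with high proximal genes. Gpx2 and Gsr drop together in 4 mice, while Aqp11 and Pi4k2b, like Gclm, are highest in the 2 fat-1 PF mice drawn as triangles.

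The same comparisons were made for 84 other genes of the redox system, grouped by role, of which 82 were tested (Aldh3a1 and Nox4 had too few reads). Averaged over both genotypes, 29 fell (35.4%) and 5 rose (6.1%) with EtOH, against 17.6% and 18.3% of all genes, and 48 did not pass. Their median log2 fold change was -0.16, against 0.04 over all genes. In fat-1 mice 29 fell and 9 rose (35.4% and 11%), against 18.8% and 18.7% of all genes. In WT mice edgeR called 0, DESeq2 1 and limma voom 16 of them, which for limma voom is close to its share of 20.7% of all genes, and 9 (11%) had an unadjusted p under 0.05, against 14.1% of all genes. Between the PF groups edgeR called 0, DESeq2 4 of them, against 1.18% of all genes, and limma voom 0, and 23 (28%) had an unadjusted p under 0.05, against 12.7% of all genes. Between the EtOH groups and in the interaction all 3 tools called 0. An unadjusted p under 0.05 was reached by 3 (3.66%) and 13 (15.9%) of them in edgeR, against 4.86% and 8.26% of all genes.

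Of 11 genes that control NRF2, 2 fell (18.2%) and 1 rose (9.09%) on average, a share of falls near the 17.6% of all genes. Nfe2l2 itself had 162 to 259 CPM in WT PF mice, 238 to 463 CPM in fat-1 PF mice, 141 to 155 CPM in WT EtOH mice and 118 to 301 CPM in fat-1 EtOH mice, and fell by 0.66 on the log2 scale (standard error 0.22, edgeR adjusted p = 0.0287). Its 2 highest mice were fat-1 PF replicates 2 and 4, and without them the change was -0.41 and did not pass (edgeR adjusted p = 0.167). Each of 6 single mice also decided this call, namely WT PF replicates 1 (-0.62) and 2 (-0.60), fat-1 PF replicates 2 (-0.55) and 4 (-0.60), and WT EtOH replicates 1 (-0.64) and 3 (-0.65). With all mice kept, Nfe2l2 did not pass under upper-quartile normalization (-0.55, edgeR adjusted p = 0.0574) or with the replicate number as a block (-0.57, edgeR adjusted p = 0.0562). Keap1 ranged from 49.8 to 71.7 CPM over all mice and did not pass (-0.15, standard error 0.07, edgeR adjusted p = 0.09), and neither did Bach1 (-0.19, standard error 0.27, edgeR adjusted p = 0.618). Cul3 fell slightly (-0.17, edgeR adjusted p = 0.0138), but did not pass under upper-quartile normalization (-0.07), without either set of libraries that stood apart (-0.14 and -0.16) or without both (-0.13). Nfe2l1, an NRF2 relative that controls proteasome genes, rose by 0.31 (edgeR adjusted p = 0.00253).

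Among the genes named outside the 10, which were picked by lowest p, Gpx4 and Prdx5 fell most. Some other NRF2 targets that are not named fell further in mean level in fat-1 mice. Gpx4, the peroxidase that protects membrane lipids, had 145 ± 26.4 CPM in WT PF (SD, n = 4) and 282 ± 106 CPM in fat-1 PF mice (SD, n = 4), against 81.8 ± 8.67 CPM in WT EtOH (SD, n = 3) and 83.0 ± 11.02 CPM in fat-1 EtOH mice (SD, n = 5). Its averaged log2 fold change was -1.29 (standard error 0.16, edgeR adjusted p = 0.000224), and without both sets of libraries that stood apart the call held. The diets did not overlap, as in 7.79% of all genes tested. Gpx4 was 1 of 2 called genes, both lower (28.6%), among 7 other peroxide and superoxide enzymes, whose median log2 fold change was -0.05. Of 16 thioredoxin and peroxiredoxin genes 7 fell (43.8%) and 1 rose (6.25%), against 17.6% and 18.3% of all genes. Prdx5, a mitochondrial and peroxisomal peroxiredoxin, fell by 1.005 (edgeR adjusted p = 0.000194), with 292 to 620 CPM in PF and 163 to 255 CPM in EtOH-fed mice. Sesn3, a stress-induced sestrin, rose by 0.50 (edgeR adjusted p = 0.00935), though without both sets of libraries it did not pass (0.46, edgeR adjusted p = 0.0723).

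Of 10 genes for glutathione synthesis and recycling, 4 fell and none rose, where 17.6% of all genes fell and 18.3% rose. Glrx, glutaredoxin, fell by 0.93 (edgeR adjusted p = 0.00122), with 290 to 581 CPM in PF and 118 to 271 CPM in EtOH-fed mice. Of 7 genes that supply NADPH, 2 fell (28.6%), and Idh1, the cytosolic isocitrate dehydrogenase, did so by 0.64 (edgeR adjusted p = 0.000595). Of 6 heme and iron genes, 4 fell (66.7%) and 1 rose (16.7%). The ferritin light chain gene Ftl1 fell by 0.43 (edgeR adjusted p = 0.0138) and the heme transporter gene Slc48a1 rose by 0.42 (edgeR adjusted p = 0.0444). The rise of Slc48a1 passed without fat-1 PF replicate 2 or 3 or fat-1 EtOH replicate 1 or 2, but not when any of the other 12 mice was left out (0.36 to 0.45). Nor did it pass without the 3 mice with large intestine genes (0.26, edgeR adjusted p = 0.121), without fat-1 PF replicates 2 and 4 (0.42, edgeR adjusted p = 0.0965) or without both sets (0.26, edgeR adjusted p = 0.167), and with all mice kept it missed the threshold in limma voom (0.28, adjusted p = 0.081) and with the replicate block (0.42, edgeR adjusted p = 0.0771). The change of Ftl1 was -0.29 without fat-1 PF replicates 2 and 4 and did not pass (edgeR adjusted p = 0.0819). Of 16 other NRF2 targets tested, 6 fell (37.5%) and 1 rose (6.25%). Osgin1 fell by 0.88 (edgeR adjusted p = 0.00166), and the glutathione conjugate exporter Abcc1 rose by 0.90 (edgeR adjusted p = 0.00864). In fat-1 mice alone, 6 of these 16 targets fell (37.5%) and 4 rose (25%), against 18.8% and 18.7% of all genes.

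Of 9 sources of oxidants tested, 2 fell (22.2%) and 1 rose (11.1%), near or below the 17.6% and 18.3% of all genes. Cyba, the membrane subunit shared by several NADPH oxidases, fell by 0.61 (edgeR adjusted p = 0.021), and did not pass without WT EtOH replicate 1 (-0.55) or without the 3 mice with large intestine genes (-0.56, edgeR adjusted p = 0.0521). Nox1, the epithelial NADPH oxidase best known from colon, was near the limit of detection, where 3 reads correspond to 0.246 to 0.421 CPM. It had 0.113 to 1.20 CPM in WT PF mice, 0.137 to 0.424 CPM in fat-1 PF mice, and WT EtOH mice had 0.537 to 2.35 CPM. In fat-1 EtOH mice it had 0.380, 0.595, 5.00, 3.57 and 0.855 CPM, with the highest values in the mice with large intestine genes. Its averaged change of 2.10 (edgeR adjusted p = 0.0181) did not pass without these mice and WT EtOH replicate 2 (1.22, edgeR adjusted p = 0.0806), without fat-1 PF replicates 2 and 4 (1.98, edgeR adjusted p = 0.0762), without both sets (1.10, edgeR adjusted p = 0.185) or without WT EtOH replicate 3 alone (1.84, edgeR adjusted p = 0.0559). With all mice kept, limma voom gave 1.07 for Nox1 (adjusted p = 0.179). Abcc1 was likewise highest in fat-1 EtOH replicates 3 and 4 (33.5 and 31.4 CPM, against 10.97 to 19.0 CPM in the other fat-1 EtOH mice), and without both sets of libraries its change was 0.45 (edgeR adjusted p = 0.0666).

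**Figure D5:**
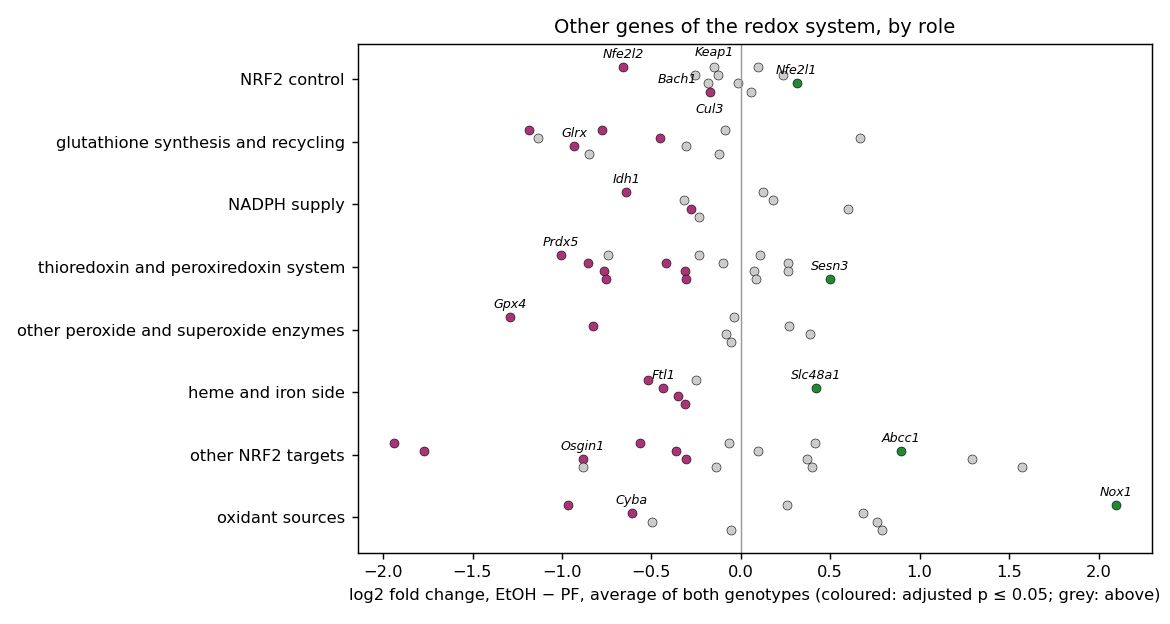
Log2 fold change with EtOH, averaged over both genotypes, of the 82 tested redox genes outside the 10, by role; genes called lower are purple, genes called higher green and the others grey, and the genes named in the text are labelled. Falls outnumber rises among the called genes, 29 against 5, with Gpx4 and Prdx5 at -1.29 and -1.005.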

How the data were processed

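Counts of reads per Ensembl gene were used as deposited: the authors aligned stranded poly(A) reads of 75 bases with tophat2 to mm10 (GRCm38), guided by Ensembl release 82, and counted them with htseq, without normalization. The strand setting and the treatment of multiply aligned reads are not given in the sources used here. Per the labels, FastQC 0.10.1 and Cufflinks were also run. The authors' own test, cuffdiff2, needs reads.

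From the counts, edgeR 4.0.16 in R 4.3.3 gave the results: filterByExpr on the 4 groups, TMM scaling, robust quasi-likelihood fit with 1 mean per group over all 16 libraries, and Benjamini-Hochberg adjustment at 0.05 over 13811 genes. Mice of a group are separate animals. CPM are over the TMM-adjusted library size. Single values were permuted exactly between groups (two-sided) as log2(CPM + 0.5). Profiles and SDs used log2 CPM with a prior count of 2. Totals of 8422645 to 11438539 counts put 3 counts at 0.246 to 0.421 CPM, for counting error only. Symbols, exons and principal transcripts came from GENCODE M21 of the same build, and promoters from RefSeq. Alternatives were DESeq2 1.42.0, limma 3.58.1 voom with sample weights, other scaling, filters, pseudocount (0.1), groups, a replicate block, and leaving out libraries. Python 3.11.15 and matplotlib 3.10.9 drew the figures. In simulated data of the size of the fat-1 EtOH comparison (13669 genes), edgeR called 15 of 64 genes changed 1.5-fold, 40 of 66 changed 2-fold and 55 of 69 changed 4-fold, and 7 that were not changed. Few genes were changed in the simulation, whereas 37.4% of all genes were called in the data. The adjustment is then stricter, so these rates do not carry over to the data.

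The 10 genes, the lists of redox and marker genes and the tests were chosen with earlier results of these data known. All 10 are named. Of the 84 other redox genes, the text names in each role the called gene with the lowest p in each direction of the averaged EtOH comparison, and always Nfe2l2, Keap1 and Bach1. For the 3 members with the largest SD, the 2 nearest profiles are named. The summed CPM of marker lists not named in the results overlapped between diets over all mice, with 404.3 to 6808 in PF and 913 to 8049 in EtOH-fed mice for ileal bile acid handling, 553 to 846 and 246 to 1027 for crypt and proliferation, and 13.7 to 43.0 and 6.30 to 37.2 for red blood cell genes.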

Additional observations from a re-analysis of the deposited data

Results flagged for a closer look

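In all, 3 values lay far from the rest of their group by Dixon's criterion at the 95% level, among 33 groups of 4 or 5 mice tested, where chance alone gives about 1 in 20. Hmox1 was 9.067 CPM in fat-1 EtOH replicate 5, against 3.44 CPM in the next mouse of that group. Gclc was 114.3 CPM in fat-1 PF replicate 1, against 68.2 CPM in the next. Sod2 was 66.72 CPM in WT PF replicate 4, below the 73.6 CPM of the nearest mouse. No gene among the 10 had an interaction of genotype and diet that passed, and none moved in opposite directions in the genotypes without overlap of the mice.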

How the results depend on the processing

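For the 10 genes in each comparison where their change is given or plotted, and for the other named genes on average, 1403 fold changes were computed under other settings. Of these, 1275 kept their direction and their side of the threshold, 62 kept their direction and lost the call, 13 gained it and 53 changed sign. The gains were those of Keap1 with limma voom, of Gclm in WT mice with only the compared groups, and of Nqo1, Srxn1, Gclc, Gclm, Gpx1 and Sod1 as given with these genes above. The changes of sign were all in values that passed under neither setting. With limma voom Gpx2 was 0.22 in fat-1 mice and 0.24 on average, Bach1 0.0479, and Gpx1 and Sod2 -0.0228 and -0.0036 between EtOH groups. With upper-quartile normalization Nqo1 was 0.0438 in WT mice, 0.0324 in fat-1 mice and 0.0381 on average. Nqo1 in WT mice was 0.000998 with a looser and 0.0110 with a stricter filter, 0.00542 with only the compared groups and 0.000651 without fat-1 PF replicates 2 and 4. Between EtOH groups Gpx1 was -0.0070 with a looser filter and -0.00357 without fat-1 PF replicates 2 and 4, and Gpx1 and Sod2 were -0.0298 and -0.0582 without both sets of libraries. Gpx2 in WT mice was -0.0299 with the replicate block and -0.00714 without both sets, and Gclc in fat-1 mice -0.11 without both sets. Without the 3 mice with large intestine genes Gpx2 was -0.0161 in WT mice, 0.0639 in fat-1 mice and 0.0239 on average, Bach1 0.14, and Gpx1 and Sod2 -0.0234 and -0.0522 between EtOH groups. With these 3 mice or any 1 mouse left out, Nqo1 spanned -0.176 to 0.124 in WT mice, -0.47 to 0.0124 in fat-1 mice and -0.32 to 0.00703 on average, Hmox1 -0.30 to 0.0467 in WT mice, Gpx2 -0.0172 to 0.43 in WT mice, -0.69 to 0.0639 in fat-1 mice and -0.23 to 0.11 on average, Bach1 -0.32 to 0.14, and Gpx1 and Sod2 -0.0251 to 0.0272 and -0.0522 to 0.14 between EtOH groups. Gpx1 and Sod1 kept their calls in fat-1 mice and on average under every setting tried. The number of the 10 genes called, 5 in fat-1 mice, was 3 with upper-quartile normalization (41.0% of all genes called under that setting), 3 with only the compared groups in the fit (23.2%), 2 without fat-1 PF replicates 2 and 4 (13.9%) and 3 without both sets of libraries (11.9%, chosen after seeing the data), and 5 to 6 with 1 mouse left out (28.5% to 39.4%). On average it was 3 with upper-quartile normalization (38.7%) and 4 to 6 with 1 mouse left out (26.9% to 38.1%). Upper-quartile normalization moved the median of all genes from 0.05 to 0.20 in fat-1 mice and from 0.04 to 0.14 on average. Between PF groups it was 1 with DESeq2 (1.18%), 1 with limma voom (0.217%) and 0 to 1 with 1 mouse left out (0% to 0.826%). In WT mice it was 3 with limma voom (20.7%), 1 with only the compared groups (8.32%) and 0 with any 1 mouse left out.

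For the 84 other redox genes, the count in fat-1 mice, 38, was 22 with only the compared groups, 18 without fat-1 PF replicates 2 and 4, 22 without both sets and 30 to 40 with 1 mouse left out. The shares of all genes were those just given for each setting. The averaged count of 34 was 22 without fat-1 PF replicates 2 and 4 (23.9% of all genes) and 25 to 40 with 1 mouse left out. Between PF groups it was 4 with DESeq2 and 0 to 2 with 1 mouse left out. In WT mice it was 1 with DESeq2, 16 with limma voom, 10 with only the compared groups and 4 without both sets (1.97%, 20.7%, 8.32% and 3.41% of all genes). The number of the 10 genes with an exact permutation p of 0.05 or less was 2 between PF groups (0 to 3 with 1 mouse left out), 5 in fat-1 mice (2 to 5) and 1 in WT mice, against 6.87%, 36.6% and 12.7% of all genes with no mouse left out. In WT mice leaving out a mouse could give no test, since the lowest possible p is then 0.1 or 0.0667. The log2 difference of the Gclc to Gclm ratio was 0.92 to 1.16 with 1 mouse left out. The replicate number of the labels as a block gave 5 of the 10 genes in fat-1 mice and 5 on average, and 32 and 31 of the other redox genes, where 34.4% and 35.0% of all genes were called. It pairs no mice by any stated relation, and deviations from the group means correlated by -0.0225 on average over 21 pairs that share a number, and by 0.00703 over 74 that do not. Depth limited the low genes: Aldh3a1 and Nox4 could not be tested, Nox1 lay near the level of 3 reads, and Hmox1 rested on 17 to 106 reads per mouse.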
